A study of Mus musculus with 6 samples.

Results

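The NF-kappa-B transcription factors and the proteins that hold them back were followed as 10 genes, which are the rows of the gene count table whose gene_name was Nfkb1, Nfkb2, Rel, Rela, Relb, Nfkbia, Nfkbie, Nfkbiz, Tnfaip3 or Bcl3. All 10 names were found once among the 54532 genes, and all 10 passed the filter on low counts. With DB2313, 7 of the 10 genes fell, led by Relb and Rel, and none rose by the edgeR test described below, beside 24.6% of all tested genes called lower and 20.8% called higher. None rose at an unadjusted p of 0.05 or with DESeq2 either.

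CD8T cells isolated from mouse spleen and stimulated with anti-CD3/28 beads were cocultured for 24 hr with thioglycolate-elicited peritoneal macrophages that had received IFN-γ at 10 ng/mL for 12 hr, and RNA was sequenced from 3 control samples and 3 DB2313 samples. The macrophages of the DB2313 group had also received DB2313, which inhibits the transcription factor Spi1 and was used at 14 nM according to the methods, and those of the control group had not. In GEO's labels the same 3 samples carry DB2313, but DC cells stand where the paper has macrophages. Neither source gives the strain, sex or age of the animals, how the T cells were separated after coculture, or whether the samples of a group were separate cultures. If they were not, the p-values measure technical spread only. The comparison addresses whether Spi1 inhibition in the cocultured cells was followed by other transcript levels in the CD8T cell samples. These samples also held macrophage transcripts, as given below, so a change in them is not by itself a change in CD8T cells.

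NF-kappa-B is a family of dimeric transcription factors that most cells keep idle in the cytoplasm. In the canonical route, signals from antigen, cytokine or Toll-like receptors activate a kinase complex that marks the inhibitor IkappaB alpha for destruction, and dimers of Rela, Rel and the product of Nfkb1 then enter the nucleus. In the noncanonical route, the kinase encoded by Map3k14 drives the processing of the Nfkb2 product, which then acts with Relb. Several of the inhibitors are themselves made on the order of NF-kappa-B, which closes a negative feedback loop. In T cells the pathway follows the antigen receptor and costimulation, and in macrophages it drives inflammatory genes.

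Promoter windows are shown because kappa-B motifs, the DNA sites of these factors, lie in the promoters of several of the genes themselves. RefSeq windows of GRCm38.p6 were matched for 7 of the 10 genes, with Nfkb1, Relb and Nfkbiz not matched, and the 250 bases upstream of each start were searched on both strands for the kappa-B consensus, for the shorter GGANTTTCC and for GAGGAAGT, a site of the kind that Spi1 binds. The first pair of motifs can overlap each other. The kappa-B consensus lay in 7 of the 10 windows of these genes (70.0%), which belong to 5 genes, against 7.25% of all 32851 windows. The shorter motif lay in 3 of the 10, against 1.07% of all windows, and GAGGAAGT in 1, that of Rel, against 2.44%. Some genes have several windows, so these are not 10 separate promoters. Of the matching windows, the second and the third of Nfkb2 lie wholly inside the deposited gene, and 247 of the 250 bases of that of Tnfaip3 do, so they precede internal transcript starts. Such windows count here as promoters by RefSeq's starts alone, and a match describes letters and not a bound site. The windows of Rela and Bcl3 held no kappa-B match. Below, capitals mark the kappa-B matches, and each sequence is given 5′ to 3′ on the strand of its gene, from chr12:55492648-55492897 (minus strand) for Nfkbia, chr19:46304487-46304736 (plus strand) for Nfkb2, chr11:23770970-23771219 (minus strand) for Rel, chr17:45555450-45555699 (plus strand) for Nfkbie and chr10:19015411-19015440 (minus strand), a stretch of 30 bases, for Tnfaip3.
Nfkbia: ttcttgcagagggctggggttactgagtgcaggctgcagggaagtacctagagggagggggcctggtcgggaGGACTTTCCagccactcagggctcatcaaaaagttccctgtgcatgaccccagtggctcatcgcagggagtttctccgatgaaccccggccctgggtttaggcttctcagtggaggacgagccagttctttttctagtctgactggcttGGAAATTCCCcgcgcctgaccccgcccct
Nfkb2: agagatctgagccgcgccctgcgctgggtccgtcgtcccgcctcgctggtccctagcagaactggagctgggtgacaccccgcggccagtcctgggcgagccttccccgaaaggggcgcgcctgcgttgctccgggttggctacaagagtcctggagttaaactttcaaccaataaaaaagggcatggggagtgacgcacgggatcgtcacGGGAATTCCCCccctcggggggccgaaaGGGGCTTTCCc
Rel: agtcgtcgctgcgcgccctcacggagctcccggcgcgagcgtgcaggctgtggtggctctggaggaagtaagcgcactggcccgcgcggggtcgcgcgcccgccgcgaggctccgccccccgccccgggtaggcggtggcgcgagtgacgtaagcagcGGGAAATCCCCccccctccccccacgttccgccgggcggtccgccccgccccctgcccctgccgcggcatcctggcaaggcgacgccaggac
Nfkbie: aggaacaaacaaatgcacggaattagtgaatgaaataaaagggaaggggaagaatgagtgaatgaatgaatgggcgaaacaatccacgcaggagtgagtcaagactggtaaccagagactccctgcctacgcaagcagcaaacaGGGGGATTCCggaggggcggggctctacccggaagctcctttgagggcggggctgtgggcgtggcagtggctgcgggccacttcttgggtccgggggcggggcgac
Tnfaip3: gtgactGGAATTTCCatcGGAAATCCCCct
In Nfkbia, the matches began 178 and 29 bases before the start, and in Rel the match GGGAAATCCC began 92 bases before it. Nfkb2 held GGGAATTCCC at 39 bases and GGGGCTTTCC at 11 bases before its start. Nfkbie had 1 match, GGGGGATTCC, at 106 bases. Tnfaip3 held GGAATTTCC and GGAAATCCCC side by side, 24 and 12 bases before the RefSeq start of this window, which is an internal start of the deposited gene, and a further match, GGGACACCCC, at 125 bases.

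Between 16611975 and 18596217 reads per library were counted on genes, and 14883 genes were tested with edgeR's quasi-likelihood test after TMM scaling, a normalization that assumes most genes do not change. CPM below is the depth-normalized count that edgeR gives after that scaling. A gene was called at a Benjamini-Hochberg adjusted p below 0.05 over all tested genes. The groups differed broadly: 45.4% of all tested genes were called, 20.8% as higher and 24.6% as lower with DB2313, and 53.1% had no overlap between the control and DB2313 libraries. The split depended on the scaling, with 3096 genes higher and 3667 lower under TMM, 4931 and 2852 under library size scaling, 4319 and 3102 under upper quartile scaling, and 185 and 11410 when libraries were scaled to the T cell markers named next. Markers of both cultured cell types moved. All 20 T cell markers were detected and rose, from a summed 0.344% to 0.348% of the counts in the control libraries to 0.545% to 0.559% in the DB2313 libraries, with a median log2 fold change of 0.59. Of 22 macrophage markers, 19 fell and 2 rose, and their sum went from between 1.12% and 1.14% to between 0.412% and 0.420%, with Vsig4 at 0 in every library. Of 8 dendritic cell markers, 4 fell and 2 rose, with sums of 0.0215% to 0.0222% and 0.0179% to 0.0183% and with Siglech at 0 in every library. Of 9 neutrophil markers 8 fell and 1 rose, with sums of 0.188% to 0.189% and 0.0708% to 0.0725%, and of 7 B cell markers 3 rose and none fell by edgeR, also at an unadjusted p of 0.05, with sums of 0.00388% to 0.00434% and 0.00585% to 0.00610%. The summed share of the macrophage markers was thus above that of the T cell markers in the control libraries and below it with DB2313. Among the macrophage markers, Lyz2 had a mean of 7702 CPM in the control group. Which cells carried the transcripts described below cannot be read from such bulk libraries. In them fewer cells of a type and less RNA per cell cannot be told apart, and the part of these markers in the changes below was not tested.

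Of the 10 genes, 7 were called lower with DB2313, against 24.6% of all tested genes. None was called higher by either tool, against 20.8% with edgeR. The groups did not overlap in the same 7 genes, against 53.1% of all tested genes. No member passed an absolute log2 fold change of 1, which 6.67% of all tested genes did together with the adjusted p. The median log2 fold change of the 10 genes was -0.25, beside 0.019 over all tested genes. The plot of CPM by library shows the 7 separated genes and the overlap in Rela, Nfkbiz and Tnfaip3.

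**Figure D1:**
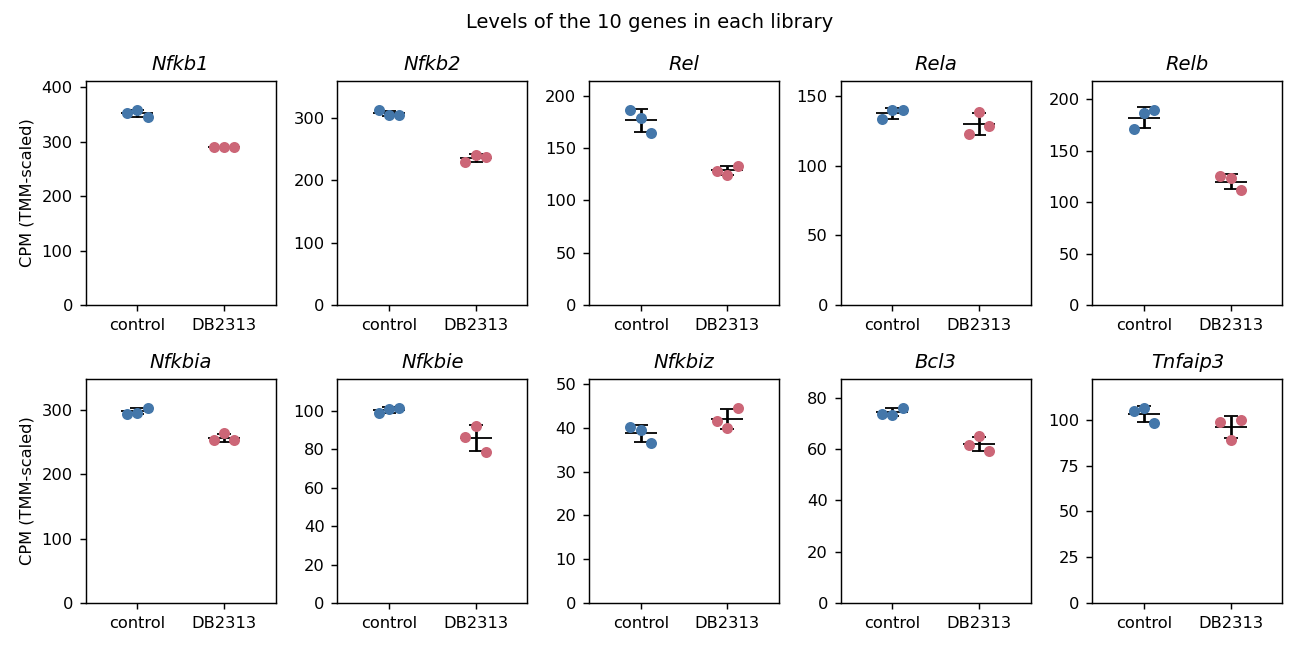
Each panel plots 1 gene, with CPM after TMM scaling on the vertical axis from 0 and each of the 3 control and 3 DB2313 libraries as a point, and black marks give the mean and SD. The groups are apart in 7 panels, for example in Relb between 112 and 125 CPM with DB2313 and between 171 and 189 in the control group, and overlap in Rela, Nfkbiz and Tnfaip3.

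Relb encodes the subunit of the noncanonical route. In GRCm38, the build of all positions given here, its gene (ENSMUSG00000002983) spans 19606217 to 19629438 of chromosome 7, minus strand. Relb stood at 171, 186 and 189 CPM in the 3 control libraries and at 125, 123 and 112 CPM in the 3 DB2313 libraries. Every DB2313 library was thus below every control library, and the level fell to 0.659 of that of the control group. This was the largest change among the 10 genes, a log2 fold change of -0.60 (standard error 0.046, edgeR adjusted p = 1.52e-10).

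Nfkb2 encodes the precursor that is processed into the DNA-binding partner of Relb, and lies on the plus strand of chromosome 19 (ENSMUSG00000025225, 46304737 to 46312090). It was measured at 312, 305 and 304 CPM in the control libraries and at 229.8, 241 and 237 CPM in the DB2313 libraries. Both groups were tight and far apart, with means of 307 ± 4.22 and 236 ± 5.65 CPM (SD, n = 3 each). The log2 fold change of Nfkb2 was -0.38 (standard error 0.034, edgeR adjusted p = 1.85e-09). It overlaps Psd, on the other strand, by 4 bases, and Psd fell by 0.32 in log2 (edgeR adjusted p = 0.000510).

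Rel encodes c-Rel, the subunit typical of lymphocytes and other blood cells, and lies on the minus strand of chromosome 11 (ENSMUSG00000020275, 23736847 to 23770970). Control libraries gave 186, 179 and 164 CPM for Rel, and DB2313 libraries 129, 125 and 133 CPM. The control libraries spread more widely than the DB2313 libraries, but the lowest of them was still above the highest of the others. Rel fell by 0.46 on the log2 scale (standard error 0.044, edgeR adjusted p = 7.29e-09), to 0.729 of the control level.

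Nfkb1 encodes the precursor of the partner that most canonical dimers contain, and lies on the minus strand of chromosome 3 (ENSMUSG00000028163, 135584655 to 135691547). In the control group its level was 353, 358 and 345 CPM, and with DB2313 it was 291, 291 and 290.3 CPM. The DB2313 libraries were nearly identical, with an SD of 0.330 CPM against 6.58 CPM in the control group. Nfkb1 fell to 0.826 of the control level, a log2 fold change of -0.28 (standard error 0.033, edgeR adjusted p = 2.07e-07). Gm43430, which lies on the same strand within Nfkb1, had 1 to 12 counts per library, whereas Nfkb1 had between 4960 and 6374.

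Rela encodes the subunit with the strong activation domain of the canonical dimer, and lies on the plus strand of chromosome 19 (ENSMUSG00000024927, 5637483 to 5648130). Its level was 133, 139.7 and 139.8 CPM in the control group and 123, 139 and 129 CPM with DB2313. The second DB2313 library lay within the control range, so the groups overlapped. The log2 fold change of Rela, -0.082 with a 95% interval from -0.17 to 0.0086, did not pass the test (edgeR adjusted p = 0.135), and it was 0.013 when libraries were scaled by their totals alone. Without DB2313 replicate 2 it was -0.13 and passed (edgeR adjusted p = 0.0251).

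The 5 subunits therefore differed in the size of their change, from -0.60 for Relb to -0.082 for Rela on the log2 scale. Ratios of the counts of a pair of genes in the same library do not depend on how libraries are scaled, and 4 were compared. The ratio of Relb to Rela was 1.28, 1.33 and 1.36 in the control libraries and 1.02, 0.890 and 0.867 with DB2313, so Relb had more counts than Rela in all 3 control libraries and in 1 of the 3 DB2313 libraries. These counts are not corrected for gene length, which is 3885 bases for Relb and 2716 for Rela. Per kilobase, mean CPM was higher for Rela in both groups, at 50.6 against 46.9 in the control group and 47.9 against 30.9 with DB2313. For Rel to Rela the ratio was 1.40, 1.28 and 1.17 in the control group and 1.05, 0.899 and 1.03 with DB2313. On the log2 scale these ratios differed between the groups by -0.52 and -0.37. Nfkb2 to Nfkb1 moved less, from 0.884, 0.853 and 0.883 to 0.790, 0.829 and 0.815, a difference of -0.11 in log2. Nfkbia to Rela went from 2.21, 2.12 and 2.17 to 2.07, 1.91 and 1.97, a difference of -0.13 in log2. In all 4 ratios the groups did not overlap, and each gave p = 0.1 in a two-sided exact permutation test, which is the smallest value that 3 against 3 libraries allow. The comparison cannot reach 0.05.

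**Figure D2:**
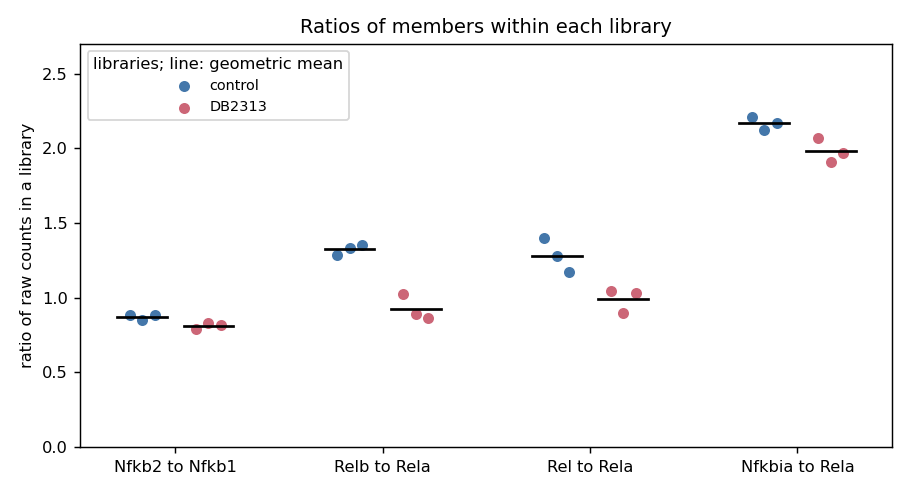
The vertical axis, from 0, gives the ratio of the raw counts of a pair of genes within a library, with 3 control and 3 DB2313 libraries as points and the geometric mean as a line. The DB2313 points lie below the control points in all 4 ratios, with the widest gap in Relb to Rela, where the control libraries lie between 1.28 and 1.36 and the DB2313 libraries between 0.867 and 1.02.

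Nfkbia encodes IkappaB alpha, the inhibitor that is destroyed and remade in each round of canonical signalling. The gene (ENSMUSG00000021025) is on the minus strand of chromosome 12 from 55489410 to 55492647, directly downstream of the window printed above. It was found at 295, 296 and 304 CPM in the control libraries and at 254, 264 and 253 CPM in the DB2313 libraries. The gap between the groups was larger than the spread within either of them. Nfkbia fell by 0.21 on the log2 scale (standard error 0.034, edgeR adjusted p = 1.50e-05), the smallest change among the 7 called genes.

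Nfkbie encodes IkappaB epsilon, a slower inhibitor of the same class, on the plus strand of chromosome 17 (ENSMUSG00000023947, 45555703 to 45563169). Control libraries had 98.8, 101 and 102 CPM, and DB2313 libraries 86.5, 92.4 and 78.7 CPM. The control group was tight and the DB2313 group was not, with SDs of 1.54 and 6.88 CPM. Its log2 fold change was -0.23 (standard error 0.050, edgeR adjusted p = 0.000619), and it lay between -0.28 and -0.17 when each library was left out in turn.

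Bcl3 and Nfkbiz encode atypical IkappaB proteins, which work in the nucleus as partners of NF-kappa-B on DNA. Bcl3 (ENSMUSG00000053175, minus strand of chromosome 7 from 19808462 to 19822770) went from 73.8, 73.4 and 76.0 CPM to 61.7, 65.0 and 59.2 CPM. All DB2313 libraries were lower, and the log2 fold change was -0.26 (standard error 0.052, edgeR adjusted p = 0.000187). The antisense genes Gm16174 and Gm16175, which overlap Bcl3, had at most 26 counts and 3 counts in a library, against 1090 to 1331 for Bcl3. A strand setting of the counting is not given in the sources used here.

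Nfkbiz (ENSMUSG00000035356, minus strand of chromosome 16 from 55811375 to 55838899) was the only one of the 10 genes with a fold change above 0. Its levels were 40.2, 39.4 and 36.4 CPM in the control group and 41.6, 40.0 and 44.5 CPM with DB2313. The groups overlapped slightly, since the lowest DB2313 library was under the highest control library. The log2 fold change of 0.12, with a 95% interval from -0.018 to 0.26, did not pass (edgeR adjusted p = 0.152). It passed with library size scaling at 0.21 and with upper quartile scaling at 0.18, and turned to -0.46 when libraries were scaled to the T cell markers.

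Tnfaip3 encodes an enzyme that edits ubiquitin chains and shuts off signalling upstream of the kinases. It lies on the minus strand of chromosome 10 (ENSMUSG00000019850, 19000910 to 19015657). The control libraries stood at 105, 107 and 98.4 CPM, and the DB2313 libraries at 98.9, 89.1 and 100.2 CPM, so the groups overlapped. The change of -0.11 in log2, with a 95% interval from -0.21 to -0.0053, did not pass the adjustment over all genes (edgeR adjusted p = 0.0805). Leaving out control replicate 3 gave -0.14 and DB2313 replicate 3 gave -0.13, and both of these passed (edgeR adjusted p = 0.0379 and 0.0449).

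How abundant the transcripts were relative to each other was read per gene length, as CPM divided by the length in kilobases that the table gives. Nfkbia led in the control group at 185 CPM per kilobase (183 to 189 over the libraries), followed by Nfkb2 at 93.4 ± 1.28, Rela at 50.6 ± 1.39 and Relb at 46.9 ± 2.55 (SD, n = 3 each). Nfkbie at 33.0 ± 0.507, Bcl3 at 30.1 ± 0.563 and Nfkb1 at 29.2 ± 0.545 CPM per kilobase lay close together, and the ranges of the last pair overlapped. Rel at 23.6 ± 1.52, Tnfaip3 at 14.3 ± 0.610 and Nfkbiz at 7.71 ± 0.403 CPM per kilobase closed the order. With DB2313 the order of the means was the same, with Relb at 30.9 ± 1.94, Nfkbie at 28.2 ± 2.26, Bcl3 between 23.9 and 26.3 and Nfkb1 at 24.1 ± 0.0273 CPM per kilobase (SD, n = 3 each). In this group each of these neighbours overlapped the next in the range of its libraries, whereas Relb had stood apart from Nfkbie in the control group. Lengths are those of the whole gene model, and levels of genes with shorter expressed isoforms are understated.

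**Figure D3:**
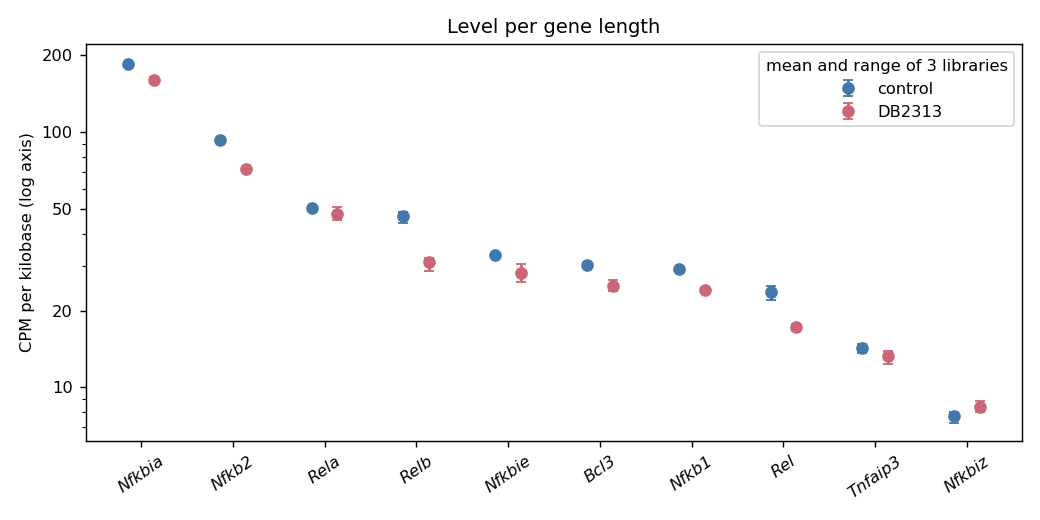
The vertical log axis gives CPM per kilobase of gene length for the 10 genes, with points for the mean and bars for the range of the 3 libraries of each group. Nfkbia is highest at 185 and 159.7 CPM per kilobase in the control and DB2313 groups and Nfkbiz lowest at 7.71 and 8.38, and Relb moves from 46.9 to 30.9, next to Nfkbie at 28.2.

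Relative to the T cell markers, all 10 genes were lower with DB2313. Scaling libraries to the summed counts of the 20 markers moved the median log2 fold change of all genes by -0.58. All 10 members were then called lower, with log2 fold changes from -0.46 in Nfkbiz to -1.18 in Relb. So were 11410 of all 14883 tested genes under this scaling, and 185 were called higher. Set against the median rise of the T cell markers under TMM, Relb was at -1.19, Rel at -1.05, Rela at -0.67 and Nfkbiz at -0.47 in log2. The fall of Relb, Rel, Nfkb2, Nfkb1, Bcl3, Nfkbie and Nfkbia was called under TMM, library size, upper quartile and T cell marker scaling alike. The plot of the fold changes under 3 scalings shows them shifted together, with Relb lowest and Nfkbiz highest in each.

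**Figure D4:**
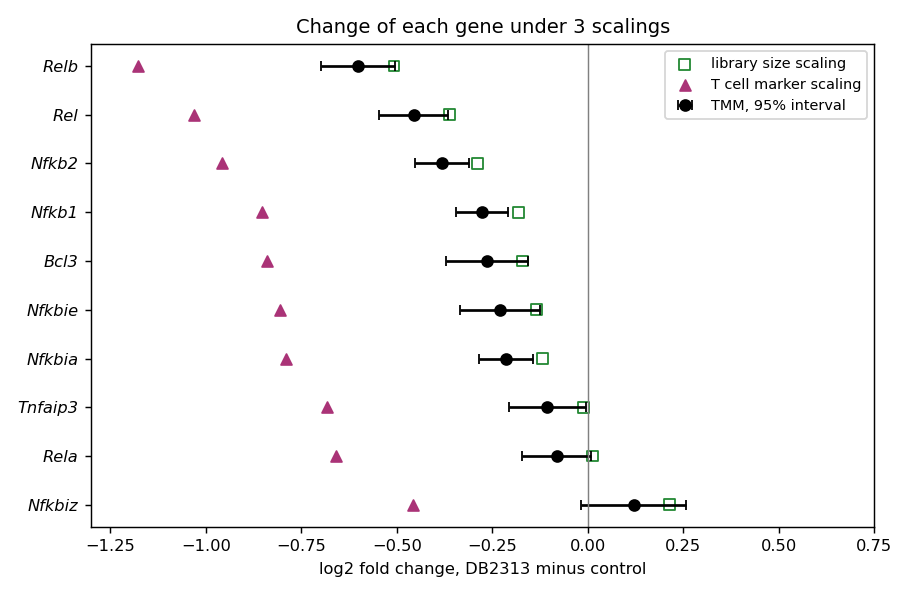
The horizontal axis gives the log2 fold change of DB2313 minus control for each of the 10 genes, as a black point with its 95% interval under TMM, a square under library size scaling and a triangle under scaling to the T cell markers. Relb is lowest under each of the 3 scalings, at -0.60 under TMM, and Nfkbiz is highest, at 0.12 under TMM and -0.46 under T cell marker scaling.

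Spi1, the transcription factor that DB2313 inhibits, is a myeloid gene and is given for orientation. It went from 279, 290 and 291 CPM to 159, 159 and 148 CPM, a log2 fold change of -0.88 (standard error 0.037, edgeR adjusted p = 2.58e-15). DB2313 acts on the Spi1 protein, so its transcript is not a check of the treatment.

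Around these genes, 89 further genes of the pathway in 6 lists were examined, and all 89 were tested. Of them 58 were called, 46 lower and 12 higher, or 65.2% against 45.4% of all tested genes, with a median log2 fold change of -0.14. Among the 17 receptors and ligands that switch the pathway on, 12 fell and 4 rose, with a median of -0.60, against 24.6% lower and 20.8% higher among all tested genes. Il1b and Il1a, the interleukin 1 cytokines, fell by 2.08 and 1.45 on the log2 scale (standard errors 0.15 and 0.22, edgeR adjusted p = 5.56e-11 and 6.77e-06). Il1b had 11.9, 12.7 and 14.5 CPM in the control group and 3.25, 2.52 and 3.42 CPM with DB2313. Tlr2, a Toll-like receptor of myeloid cells, went from 121, 117 and 120 CPM (mean 119 ± 2.05) to 50.4, 51.9 and 42.5 CPM.

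Another 4 of that list rose. Ltb, the lymphotoxin beta chain that lymphocytes display to trigger the noncanonical route, rose from 534, 561 and 579 CPM to 822, 841 and 799 CPM, a log2 fold change of 0.56 (standard error 0.034, edgeR adjusted p = 2.67e-12). Cd40lg, the ligand of activated T cells for Cd40, rose by 0.57 in log2. Tnfrsf13c, a TNF receptor family gene of B cells, and Il1r1 rose by 0.77 and 0.57 in log2 at means of no more than 5 CPM. These 2 low genes were not called under DESeq2 (adjusted p = 0.0510 and 0.0734). Scaled to the T cell markers, none of the 4 was called, with log2 fold changes of -0.019 for Ltb, -0.000367 for Cd40lg, -0.000481 for Il1r1 and 0.20 for Tnfrsf13c.

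Between receptors and kinases, 6 of 17 adaptors and ubiquitin ligases fell and 4 rose, with a median of -0.057, beside 24.6% lower and 20.8% higher among all tested genes. The largest falls were those of Irak3, Irak2 and Irak4, which encode proteins that transmit or curb signals of interleukin 1 and Toll-like receptors. Irak3 went from 27.3, 29.3 and 29.9 CPM to 15.1, 17.0 and 17.8 CPM, and Irak2 from 69.5, 72.1 and 70.0 to 43.2, 38.7 and 42.7 CPM. Their log2 fold changes were -0.79 and -0.76, and that of Irak4 was -0.62 (edgeR adjusted p = 5.10e-08, 1.16e-10 and 7.23e-08). The rises were smaller: Rbck1, part of the ligase complex that builds linear ubiquitin chains, was at 0.24, Tradd, an adaptor of the TNF receptor, at 0.23 and Birc2, a ubiquitin ligase, at 0.12 in log2. All 3 turned negative under scaling to the T cell markers. Traf1, the most abundant gene of the list at 309 ± 10.1 and 304 ± 6.68 CPM (SD, n = 3 each), had a log2 fold change of -0.023 with a 95% interval from -0.10 to 0.050.

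Of the 11 kinases, 2 fell, 1 rose and 8 were not called, with a median of -0.0012, whereas 45.4% of all tested genes were called. Map3k14, the kinase of the noncanonical route, went from 128, 125 and 123 CPM to 102, 105 and 100.001 CPM, a log2 fold change of -0.29 (standard error 0.040, edgeR adjusted p = 1.81e-06). Chuk, the IKK alpha kinase through which Map3k14 acts, was at -0.14 (standard error 0.051, edgeR adjusted p = 0.0333), and this call was lost with DESeq2 (adjusted p = 0.1005), with library size and upper quartile scaling, with no filter on low counts and when control replicate 1, control replicate 2 or DB2313 replicate 2 was left out. Ikbke, an IKK-related kinase, was the most abundant and was at 0.12 (standard error 0.037, edgeR adjusted p = 0.0102), a call that was lost without DB2313 replicate 3 at 0.094 and a sign that turned under T cell marker scaling.

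In the antigen receptor route of lymphocytes, Bcl10, an adaptor that links the receptor to the kinases, fell from 69.3, 68.0 and 70.9 CPM to 55.6, 59.2 and 63.8 CPM. All DB2313 libraries were lower, and the log2 fold change was -0.22 (standard error 0.056, edgeR adjusted p = 0.00226), although Bcl10 was not called with library size scaling (adjusted p = 0.0646). Malt1, the protease that binds Bcl10, was at -0.054 with a 95% interval from -0.15 to 0.045. Prkcq, a kinase that acts upstream of both in T cells, rose from 139, 134 and 134 CPM to 197, 198 and 198 CPM, a log2 fold change of 0.54 (standard error 0.036, edgeR adjusted p = 1.14e-11) that lay close to the 0.59 of the T cell markers and was -0.039 when scaled to them.

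Among the 14 other IkappaB proteins and brakes, 7 fell and 1 rose, with a median of -0.14, beside the same 24.6% lower and 20.8% higher among all tested genes. Tnip3, a partner of the Tnfaip3 product, changed most, from 40.7, 41.3 and 39.1 CPM to 10.2, 8.67 and 10.4 CPM, a log2 fold change of -2.04 (standard error 0.087, edgeR adjusted p = 2.58e-15). Rnf11 and Itch, further partners of that enzyme, fell by 0.31 and 0.29 in log2. Tnfaip8l2 was at 0.11 (edgeR adjusted p = 0.0375) and lost its call with DESeq2, with no filter on low counts, with a replicate block (0.11, adjusted p = 0.0675) and without any one of control replicates 1 and 2 and DB2313 replicates 1 and 2, and Tax1bp1, the most abundant of the list, was at 0.052 with a 95% interval from -0.023 to 0.13.

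Of 26 genes commonly cited as targets of NF-kappa-B, 17 fell, 1 rose and 8 were not called, with a median log2 fold change of -0.37, beside 24.6% of all tested genes called lower and 20.8% called higher. Ccl22, a chemokine of mature dendritic cells and macrophages and the most abundant of the list, went from 2189.7 ± 12.9 to 1188 ± 15.4 CPM (SD, n = 3 each). Ccl5 fell from 766, 737 and 770 CPM to 323, 299 and 297 CPM. Nos2, the inducible nitric oxide synthase of activated macrophages, fell from 6.98, 8.38 and 7.94 to 0.433, 1.29 and 0.489 CPM, a log2 fold change of -3.41 (standard error 0.27, edgeR adjusted p = 2.39e-10). Ier3, an early response gene, fell by 0.92 in log2. The single rise was that of Ccl4, from 11.7, 9.08 and 10.0 CPM to 14.4, 14.7 and 12.9 CPM, a log2 fold change of 0.44 that was -0.13 under scaling to the T cell markers. Several targets are made by myeloid cells, whose markers fell in the same libraries, and the part of this was not tested.

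**Figure D5:**
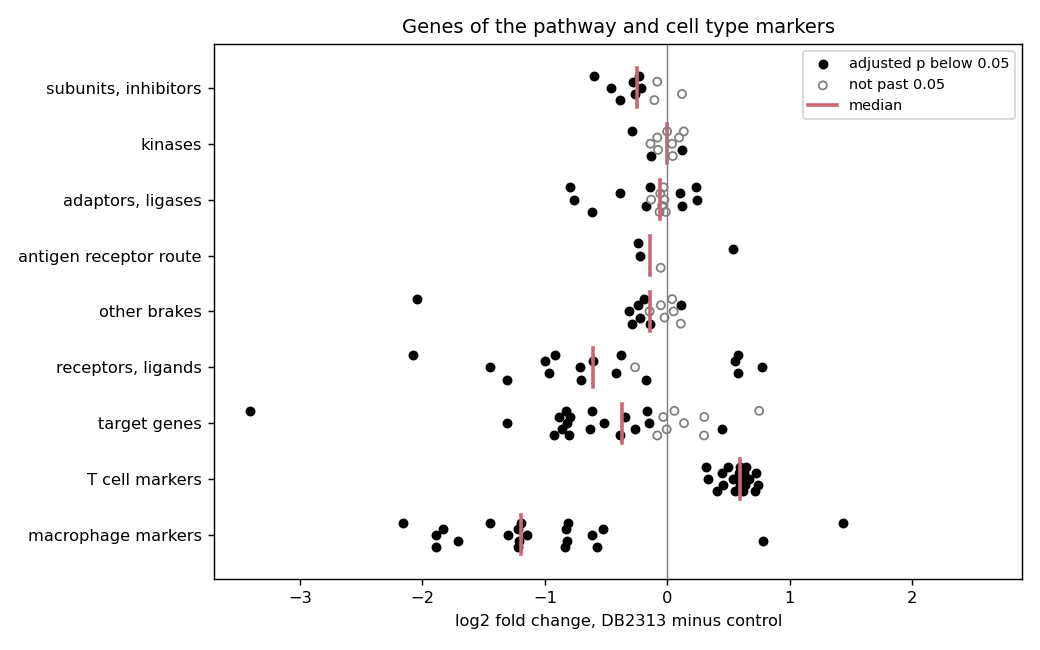
The horizontal axis gives the log2 fold change of DB2313 minus control under TMM for each tested gene of 7 pathway lists and of the T cell and macrophage markers, with filled points past an adjusted p of 0.05, open points not past it and a line at the median. The 10 subunits and inhibitors lie between -0.60 and 0.12 around a median of -0.25, between the macrophage markers with a median of -1.19 and the T cell markers with 0.59.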

How the data were processed

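RNA-seq libraries of 3 control and 3 DB2313 samples were analysed. The authors deposited raw counts per gene without normalization, with gene coordinates, biotypes and lengths. The methods name LifeScope for alignment and counting, whereas the submitters' processing notes list CASAVA 1.8, HISAT2 2.0.5 and featureCounts 1.5.0-p3, and the genome build, annotation and strand setting are not given in the sources used here. Of 54409 genes shared with GENCODE mouse release 21, 98.3% had its GRCm38 coordinates, as did 9 of the 10 members, the other being Nfkb2.

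Counts were filtered (filterByExpr), scaled by TMM and tested with glmQLFTest in edgeR 4.0.16 (R 4.3.3), with Benjamini-Hochberg adjustment over all tested genes, and the scripts were tested on simulated data. Standard errors and 95% intervals were derived from the fitted change and its test. CPM per kilobase used the deposited lengths. Replicates of a group differed beyond sampling noise (chi-square 2.54 to 4.00 per gene, and 51.8 to 56.0 across groups), and each entered as its own sample. The common biological coefficient of variation that edgeR estimated was 4.67%. Neither value tells whether the replicates were separate cultures. The precision of a library total covers counting error only, and a count of 0 allows up to 3 counts. All 10 members are described. From the other lists, the most abundant gene, up to 3 largest rises and falls among called genes and the genes of the antigen receptor route are named, with Spi1 and genes overlapping a member, and 1 result under this rule is not reported here. The members and lists were chosen with earlier results of these data known. Alternatives were DESeq2 1.42.0, other scalings and filters, a replicate block, leaving out each library and a fold threshold.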

Additional observations from a re-analysis of the deposited data

How the results depend on the processing

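Over 13 alternatives, the 10 members gave 130 fold changes, of which 121 kept both sign and call, 7 gained a call, 2 changed sign and 0 lost a call. In each of the 13 the 7 called members were called lower. With an absolute log2 fold change above 1 as a further condition 0 members were lower, and of the 89 other pathway genes 6 were lower and 0 higher. Of all 14883 tested genes, 789 were lower and 204 higher under this condition. Library size scaling made 1 member higher (Nfkbiz) and 19 of the 89 other pathway genes, beside 4931 of all 14883 tested genes. Upper quartile scaling made 1 member higher (Nfkbiz), beside 4319 of all tested genes. Scaling to the T cell markers left 0 of the 89 other pathway genes higher and 80 lower, beside 185 and 11410 of all tested genes.

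Signs that turned lay near no change or followed the T cell marker scaling, which moved the median gene by -0.58. Library size scaling put Rela at 0.013, Traf1 at 0.072 and Malt1 at 0.041, and upper quartile scaling Traf1 at 0.041 and Malt1 at 0.010. Traf1 ranged from -0.039 to 0.0064 with each library left out, above 0 without control replicate 3. Under T cell marker scaling the values were -0.46 for Nfkbiz, -0.45 for Ikbke, -0.33 for Rbck1, -0.34 for Tradd, -0.46 for Birc2, -0.039 for Prkcq, -0.52 for Tax1bp1, -0.46 for Tnfaip8l2, -0.019 for Ltb, -0.000367 for Cd40lg, -0.000481 for Il1r1 and -0.13 for Ccl4.

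With a replicate block 7 members were lower and 0 higher, as without it, and 2912 genes were higher and 3525 lower against 3096 and 3667. Same-numbered libraries did not deviate together (correlations from -0.011 to 0.0025), and 0 of 6 libraries correlated best with its own number. No pairing by number was seen, but this check could miss a small shared effect. With 3 libraries per group, small changes such as those of Rela and Tnfaip3 fall on either side of the threshold when 1 library is left out.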
